A study of Homo sapiens with 6 samples.

Results

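The genes described here are NRAS, which encodes the RAS protein whose gene is mutated in HT1080 cells, and 9 genes whose transcripts rise when the RAS to ERK pathway is active: DUSP4, DUSP5, DUSP6, SPRY2, SPRY4, SPRED1, ETV4, ETV5 and PHLDA1. They were chosen by name, with earlier results of these data known. Each of the 10 was found once by its Ensembl ID among the 62710 genes of the table. RNA was sequenced from HT1080, an established human fibrosarcoma line, in 3 untreated libraries and in 3 libraries from cells given human IFNβ at 20 ng/mL for 24 h. Untreated and treated cells were from the same line, and nothing in the labels says that the 3 libraries of a group came from separate cultures, so p-values measure only the spread between these libraries. HT1080 cells are known for an activating mutation of NRAS. The labels do not state it, and a gene-level table does not show which allele a transcript came from, so NRAS values are the sum of both.

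RAS proteins pass a growth signal through the kinases RAF, MEK and ERK. Active ERK switches on genes that in turn restrain the pathway: the DUSP phosphatases remove phosphate from ERK, Sprouty and SPRED proteins act further upstream on RAS and RAF, and ETV4 and ETV5 are ETS-family transcription factors that carry part of the output. The levels of these transcripts are commonly read as an account of pathway output in tumour cells. Interferon signalling runs mainly through JAK kinases and STAT transcription factors. The table holds transcript levels and no measure of ERK activity or protein.

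Values are FPKM, fragment numbers scaled to gene length and sequencing depth, so levels of different genes can be compared per length. The fragment totals that the FPKM were divided by, inferred from the FPKM themselves, were between 22848104 and 32915500 per library. Recovered fragments came to between 100.06% and 100.19% of these totals. The treatment was visible in every library: OAS1, ISG15, MX1 and IFIT1, interferon-induced antiviral genes, rose by 6.39, 7.09, 7.70 and 8.67 on the log2 scale. Of 8 mesenchymal markers, VIM, FN1, CD44 and COL6A1 had means of at least 28.3 FPKM in untreated cells, S100A4 had 2.68, and COL1A1, COL1A2 and THY1 were at 0.341, 0.0190 and 0.0217. Of 10 epithelial and leukocyte markers, the highest untreated means were 0.314 FPKM for CLDN4 and 0.498 for FCER1G.

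IFNβ-treated cells had less NRAS, SPRED1, PHLDA1 and ETV4 transcript and more DUSP5 and ETV5 transcript than untreated cells. The falls were between 12.0% and 20.5% of the untreated mean, and the rises were 8.95% for ETV5 and 15.4% for DUSP5. DUSP4, SPRY2, SPRY4 and DUSP6 did not pass the test. No gene of the 10 changed by 2-fold, a log2 fold change of 1 in either direction. Changed means a Benjamini-Hochberg adjusted p under 0.05 in limma, fitted over the 20716 genes with a mean of at least 0.1 FPKM.

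These 6 changes of 10 stand against a broad response of the transcriptome. Over all genes tested 32.7% changed, 15.2% upwards and 17.5% downwards, and 4.22% changed by at least 2-fold. Among genes with a mean of at least 1 FPKM, as 9 of the 10 have, 49.4% changed. The untreated and treated values did not overlap for 7 of the 10 genes, against 46.6% of all genes tested and 62.7% of those with a mean of at least 1 FPKM. The median absolute log2 fold change was 0.181 over those 9 genes and 0.182 over all genes with a mean of at least 1 FPKM, so the shifts were close in size to those of expressed genes at large.

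**Figure D1:**
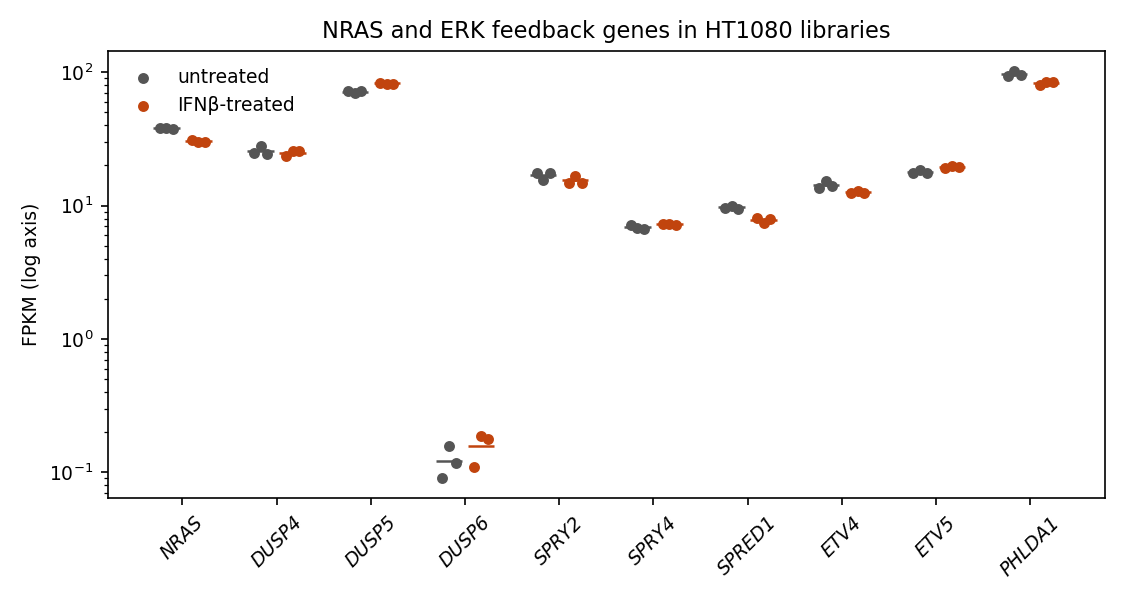
FPKM of the 10 genes in each of 6 HT1080 libraries on a log axis, points being libraries and bars the mean of 3. PHLDA1 and DUSP5 lie highest, DUSP6 lies below 0.2 FPKM in every library, and the 2 groups are apart for NRAS, DUSP5, SPRY4, SPRED1, ETV4, ETV5 and PHLDA1.

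The levels in untreated cells spanned from 97.1 ± 4.35 FPKM for PHLDA1 to 0.122 ± 0.0334 FPKM for DUSP6 (mean ± SD, n = 3). DUSP5 followed PHLDA1 with 71.5 ± 0.888, then came NRAS with 38.1 ± 0.335 and DUSP4 with 25.8 ± 1.85. ETV5 had 17.9 ± 0.515, SPRY2 16.8 ± 1.05, ETV4 14.3 ± 0.840, SPRED1 9.69 ± 0.244 and SPRY4 6.90 ± 0.223 FPKM. In untreated cells no gene overlapped the next one in this order, although ETV5 and SPRY2 came within 0.0447 FPKM of each other. In IFNβ-treated cells the order was the same, but PHLDA1 and DUSP5 overlapped, at 82.8 ± 2.29 and 82.5 ± 0.986 FPKM.

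The levels of PHLDA1 and DUSP5 relative to each other depend on the gene length the authors divided by. The FPKM of PHLDA1 corresponded to a length of 5913 bases, against 8069 bases of exon in GENCODE release 29. With the lengths of that release PHLDA1 and DUSP5 kept their order in untreated cells, at 71.1 and 69.3 FPKM, but in IFNβ-treated cells DUSP5 was the higher, at 79.97 against 60.7 FPKM. SPRY2, at 17.79 FPKM in untreated cells, then came above ETV5, at 17.78. Comparisons of a gene between libraries do not depend on its length.

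3 promoters are shown because they belong to genes that fell after IFNβ and that RefSeq (GRCh38.p14) lists with a start site here. Each runs from 250 bases before to 50 bases after the start, and capitals mark GGAAG or, on the other strand, CTTCC, the core letters bound by ETS factors such as ETV4 and ETV5.
NRAS, chr1:114716722-114717021, minus strand: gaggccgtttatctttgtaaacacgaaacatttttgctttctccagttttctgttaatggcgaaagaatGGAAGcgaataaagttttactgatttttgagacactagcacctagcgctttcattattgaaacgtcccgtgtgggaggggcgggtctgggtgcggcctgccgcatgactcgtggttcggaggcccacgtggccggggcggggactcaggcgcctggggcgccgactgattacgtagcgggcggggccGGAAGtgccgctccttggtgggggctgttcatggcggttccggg
SPRED1, chr15:38252586-38252885, plus strand: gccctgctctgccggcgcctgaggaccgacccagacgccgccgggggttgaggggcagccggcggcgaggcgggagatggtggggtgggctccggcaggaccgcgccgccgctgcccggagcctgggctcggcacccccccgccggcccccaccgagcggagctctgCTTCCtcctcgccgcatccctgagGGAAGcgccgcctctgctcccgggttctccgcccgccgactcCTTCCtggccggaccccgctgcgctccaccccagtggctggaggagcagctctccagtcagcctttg
PHLDA1, chr12:76031727-76032026, minus strand: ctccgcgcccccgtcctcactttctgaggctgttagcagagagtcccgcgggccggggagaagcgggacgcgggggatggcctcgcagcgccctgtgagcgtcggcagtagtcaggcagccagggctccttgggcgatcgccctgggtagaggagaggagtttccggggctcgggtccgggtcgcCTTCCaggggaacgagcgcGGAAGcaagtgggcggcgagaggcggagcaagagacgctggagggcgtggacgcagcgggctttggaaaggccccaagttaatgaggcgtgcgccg

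The NRAS promoter holds 2 of these cores, at positions -181 and 7 from the start, that of SPRED1 holds 3 and that of PHLDA1 2. Of 35116 RefSeq promoters of the same length, 71.9% hold at least 1 and 38.9% at least 2, so the letters are common. The core of the interferon response element, searched as AANNGAAA on both strands, was found in 22.8% of all promoters. It occurs once in the NRAS promoter, at position -203, and in none of the SPRED1 and PHLDA1 windows. It was also found at a listed start of DUSP6, SPRY2 and SPRY4, and in the promoters of all 4 interferon-induced genes above, IFIT1, MX1, ISG15 and OAS1. SPRY2 and MX1 have 3 listed starts each, whereas the share of 22.8% counts each promoter alone. For SPRY2 only start 3 held the core, and for MX1 all 3 starts did. The GC box GGGCGG was found in 44.95% of all promoters, and it occurs 3 times in the NRAS promoter and once in each of those of SPRED1 and PHLDA1. A match describes these letters in these windows and is not a binding site. DUSP4, DUSP5, ETV4 and ETV5 have no entry in the table.

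NRAS (ENSG00000213281, chromosome 1, minus strand, GRCh38) encodes the GTPase at the head of the pathway. It was read at 38.1, 38.4 and 37.7 FPKM in untreated cells and at 30.9, 29.9 and 30.2 FPKM in IFNβ-treated cells. Every treated library lay below every untreated one, and the spread within a group was at most 1.71% of its mean. NRAS fell by 0.33 ± 0.02 on the log2 scale (estimate ± SE, n = 3, limma adjusted p = 7.1e-05), or by 20.5%.

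HRAS, which encodes a close relative of the NRAS protein, fell as well. It went from 16.5 ± 0.343 to 14.2 ± 0.866 FPKM (log2 fold change -0.22 ± 0.05, adjusted p = 0.013 in limma). NRAS was more abundant than HRAS in every library. Their ratio was 2.35, 2.33 and 2.24 in untreated and 2.14, 2.26 and 2.02 in IFNβ-treated cells, and the groups overlapped (exact permutation p = 0.2, two-sided). It is 1 of 7 sums, shares and ratios computed, for which an exact test of 3 against 3 libraries cannot give a p under 0.1, and the smallest value after Benjamini-Hochberg adjustment over them was 0.233.

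Of the 3 phosphatases, DUSP5 alone passed the test. DUSP5 (ENSG00000138166, chromosome 10) encodes a nuclear phosphatase that acts on ERK. It had 71.9, 70.5 and 72.1 FPKM in untreated and 83.6, 82.0 and 81.8 FPKM in IFNβ-treated cells. All treated libraries were higher, and DUSP5 rose by 0.21 ± 0.02 on the log2 scale (limma adjusted p = 3.2e-04).

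DUSP4 (ENSG00000120875), another nuclear phosphatase of MAP kinases, had 24.9, 27.9 and 24.5 FPKM without and 23.6, 25.6 and 25.6 FPKM with IFNβ. The groups overlapped, with untreated library 2 the highest of all. The log2 fold change was -0.05 (95% interval -0.19 to 0.10, limma adjusted p = 0.60), and without untreated library 2 it was 0.01. The spread between untreated libraries, 7.20% of the mean, was larger than the 1.37% that counting alone gives at its fragment numbers. The ratio of DUSP5 to DUSP4 moved from 2.79 ± 0.226 to 3.32 ± 0.202 without overlap (exact permutation p = 0.1, the smallest possible).

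DUSP6 (ENSG00000139318, chromosome 12) encodes the cytoplasmic ERK phosphatase that is widely used as a readout of ERK output. In these cells its transcript was close to absent, at 0.0907, 0.157 and 0.118 FPKM in untreated and 0.109, 0.187 and 0.179 FPKM in IFNβ-treated cells. These values rest on 8, 18, 15, 13, 18 and 20 fragments, against at least 4141 fragments for DUSP4 in the same libraries. DUSP6 made up 0.125% of the summed FPKM of the 3 phosphatases before and 0.147% after treatment. The log2 fold change was 0.22 (95% interval -0.43 to 0.87, limma adjusted p = 0.60), so a change of moderate size in either direction was not detectable at this depth. Its size and its interval depend on the 0.1 FPKM added before taking log2. The log2 fold change was 0.35 ± 0.43 with 0.01 added and 0.046 ± 0.056 with 1 added (estimate ± SE). An antisense transcript, AC024909.2, overlaps 1875 bases of its exons in GENCODE release 29, and whether fragments were counted by strand is not given in the sources used here.

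Among SPRY2, SPRY4 and SPRED1, SPRED1 alone passed the test. SPRED1 (ENSG00000166068, chromosome 15) encodes an adaptor that brings neurofibromin, a RAS inactivator, to the membrane. It had 9.61, 9.96 and 9.49 FPKM in untreated and 8.07, 7.38 and 7.99 FPKM in IFNβ-treated cells. The groups were apart, and SPRED1 fell by 0.31 ± 0.04 on the log2 scale (limma adjusted p = 0.0023), or by 19.4%. Its relative SPRED2 fell as well, from 16.2 ± 0.639 to 13.3 ± 0.543 FPKM (log2 fold change -0.29, adjusted p = 0.0028 in limma), and the ratio of SPRED1 to SPRED2 was 0.597 ± 0.00908 before and 0.589 ± 0.0170 after treatment (exact permutation p = 0.6). The third SPRED gene, SPRED3, had 4.75 ± 0.431 FPKM before and 4.30 ± 0.132 FPKM after treatment and did not pass the test (log2 fold change -0.14, adjusted p = 0.21 in limma).

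SPRY2 (ENSG00000136158, chromosome 13) and SPRY4 (ENSG00000187678, chromosome 5) encode Sprouty proteins, inhibitors of receptor tyrosine kinase signalling. SPRY2 had 17.4, 15.6 and 17.4 FPKM in untreated and 14.7, 16.8 and 14.9 FPKM in treated cells, and the second library of each group broke the order of the others. Its log2 fold change was -0.12 (95% interval -0.29 to 0.04, limma adjusted p = 0.23). SPRY4 had 7.15, 6.81 and 6.73 FPKM without and 7.23, 7.22 and 7.20 FPKM with IFNβ. The treated values lay above all untreated ones but by a small margin, and the log2 fold change was 0.06 (95% interval -0.01 to 0.14, limma adjusted p = 0.19).

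The ETS factors ETV4 and ETV5 moved in opposite directions. ETV4 (ENSG00000175832, chromosome 17) had 13.6, 15.3 and 14.1 FPKM in untreated and 12.5, 12.9 and 12.5 FPKM in IFNβ-treated cells. It fell by 0.18 ± 0.04 on the log2 scale (limma adjusted p = 0.022). ETV5 (ENSG00000244405, chromosome 3) had 17.5, 18.5 and 17.7 FPKM without and 19.1, 19.9 and 19.4 FPKM with IFNβ, and it rose by 0.12 ± 0.03 (limma adjusted p = 0.021).

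The groups were apart for both genes, yet the margins were narrow. The adjusted p of ETV4 was between 0.053 and 0.081 when untreated library 3 or any of the 3 treated libraries was left out, and that of ETV5 was between 0.059 and 0.070 without untreated library 1 or 3 or treated library 2 or 3. The summed FPKM of both was 32.2 ± 1.35 before and 32.1 ± 0.644 after treatment, while the ratio of ETV5 to ETV4 went from 1.28, 1.21 and 1.26 to 1.53, 1.55 and 1.55 (exact permutation p = 0.1, the smallest possible). In GENCODE release 29 the exons of ETV4 overlap those of DHX8 on the other strand by 68 bases. Those of ETV5 overlap DGKG on the same strand by 164 bases. DHX8 had between 9.91 and 10.9 FPKM and DGKG between 1.15 and 2.01 FPKM over the libraries.

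PHLDA1 (ENSG00000139289, chromosome 12), a pleckstrin homology-like protein induced by growth factors, had 93.6, 102.0 and 95.6 FPKM in untreated and 80.2, 84.2 and 84.0 FPKM in IFNβ-treated cells. All treated libraries were lower, and PHLDA1 fell by 0.23 ± 0.04 on the log2 scale (limma adjusted p = 0.0044). It was the most deeply covered of the 10 genes. Antisense transcripts AC011611.3 and AC011611.4 overlap its exons by 553 and 779 bases and had at most 0.415 and 1.40 FPKM. In bulk RNA, fewer cells with a transcript and less transcript per cell cannot be told apart, for PHLDA1 as for the other genes.

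**Figure D2:**
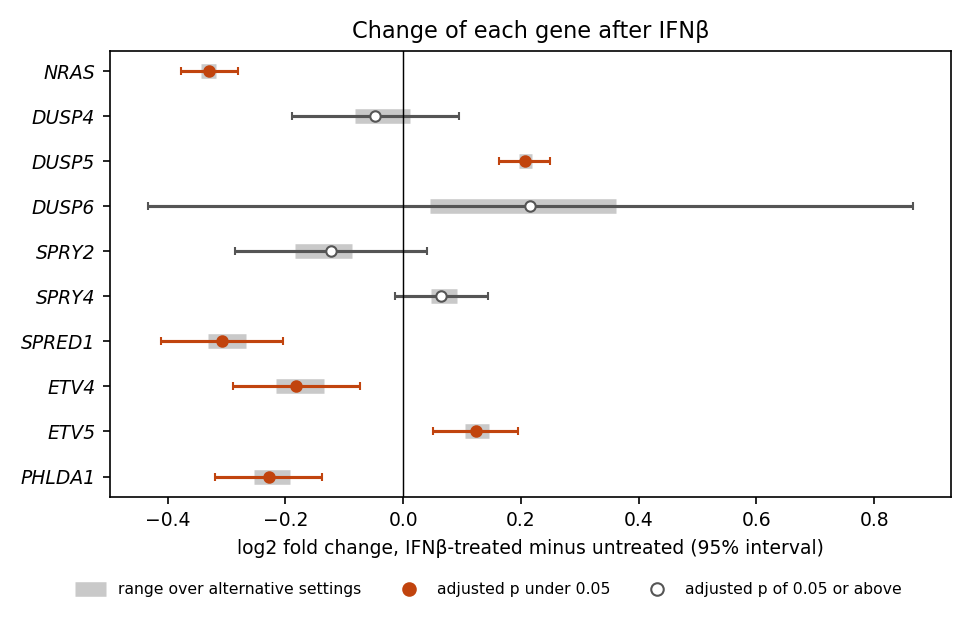
Log2 fold change of each gene, IFNβ-treated minus untreated, with 95% intervals (n = 3 per group); filled points have an adjusted p under 0.05 and grey bars span the values under alternative settings. NRAS, SPRED1, PHLDA1 and ETV4 lie below 0, DUSP5 and ETV5 above it, and the interval of DUSP6 runs from -0.43 to 0.87.

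The remaining genes of the pathway were taken in 4 lists. Of the genes tested, 53.8% of the other feedback genes and 28.6% of the other output genes changed. The shares were 46.7% in the cascade and 71.4% among receptors and ligands. Over all genes tested the share was 32.7%, and it was 49.4% among those with a mean of at least 1 FPKM. Of 14 other feedback genes 13 could be tested, of which 3 rose and 4 fell. Their median log2 fold change was 0.14, against 0.00017 over all genes tested. The sign of that median depends on SPRY1, SPRY3 and DUSP2, with means of 0.168, 0.173 and 0.429 FPKM. These were the list's tested genes under 1 FPKM, and they did not pass the test, at log2 fold changes of 0.29, 0.31 and 0.18. DUSP10 and DUSP16, phosphatases that act mainly on the stress kinases JNK and p38, rose from 18.2 ± 1.24 to 23.4 ± 0.333 FPKM (log2 fold change 0.36, limma adjusted p = 0.0020) and from 2.67 ± 0.157 to 3.39 ± 0.265 FPKM (0.33, 0.015). IL17RD, a membrane inhibitor of FGF signalling, fell from 1.56 ± 0.0954 to 0.872 ± 0.0122 FPKM (log2 fold change -0.77, limma adjusted p = 7.4e-04). DUSP1, an immediate early phosphatase, fell from 6.14 ± 0.1003 to 4.87 ± 0.371 FPKM (log2 fold change -0.33, limma adjusted p = 0.0065). Without untreated library 3, 1 gene of this list rose and 6 fell, and the change of DUSP16 had an adjusted p of 0.055. With a pseudocount of 1 in place of 0.1, the log2 fold change of IL17RD was -0.45.

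Of 17 other genes of ERK output 14 could be tested, of which 2 rose and 2 fell, with a median of 0.07. JUNB, an AP-1 subunit, rose from 14.0 ± 1.14 to 20.0 ± 0.809 FPKM (log2 fold change 0.51, limma adjusted p = 0.0014), and PLAUR, the urokinase receptor, rose from 39.0 ± 0.798 to 52.6 ± 0.641 FPKM (0.43, 3.2e-05). CXCL8, a neutrophil chemokine, fell from 5.86 ± 0.713 to 3.64 ± 0.109 FPKM (log2 fold change -0.67, limma adjusted p = 0.0016). CCND1, cyclin D1, fell from 211.8 ± 5.31 to 191.2 ± 4.38 FPKM (log2 fold change -0.15, limma adjusted p = 0.0064). With limma-voom on recovered fragments, 6 genes of this list rose and 2 fell.

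The cascade from RAS to ERK and its direct substrates gave 4 rises and 10 falls among 30 genes, with a median of -0.03. Among all genes with a mean of at least 1 FPKM, 2534 rose and 3391 fell, with a median of -0.034. RPS6KA2 and ELK3 had the largest falls. RPS6KA2, a kinase activated by ERK, went from 1.78 ± 0.0189 to 0.989 ± 0.0737 FPKM (log2 fold change -0.79, limma adjusted p = 6.1e-04), and ELK3, an ETS factor that ERK phosphorylates, went from 41.4 ± 1.06 to 26.0 ± 0.442 FPKM (-0.67, 9.2e-06). RRAS, a RAS relative, rose from 16.3 ± 0.354 to 19.3 ± 0.711 FPKM (log2 fold change 0.25, limma adjusted p = 0.0020). BRAF rose from 1.37 ± 0.0136 to 1.60 ± 0.0423 FPKM at an adjusted p of 0.04987 in limma, and that call was lost when any library was left out. In the same list, and named after its values were seen, PTPN11, the phosphatase SHP2 that carries receptor signals to RAS, fell from 33.6 ± 0.163 to 21.7 ± 0.513 FPKM (log2 fold change -0.63, adjusted p = 7.3e-06). Without untreated library 3, 9 genes of the list changed, and with a pseudocount of 1 the log2 fold change of RPS6KA2 was -0.48.

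Of 19 receptor and ligand genes 14 could be tested, of which 6 rose and 4 fell, with a median of -0.09. AREG, the EGFR ligand amphiregulin, was the sole gene of the 4 lists to change by at least 2-fold. It went from 0.175 ± 0.0900 to 0.670 ± 0.0834 FPKM (log2 fold change 1.54 ± 0.29, limma adjusted p = 0.0074), on 3, 9 and 14 fragments against 30, 27 and 36. The size of its change depends on the pseudocount: the log2 fold change was 0.51, under 2-fold, with a pseudocount of 1 and 2.01 with 0.01. PDGFRB, a PDGF receptor, rose from 0.532 ± 0.0352 to 0.976 ± 0.0590 FPKM (log2 fold change 0.77, limma adjusted p = 0.0027; 0.37 with a pseudocount of 1). EGFR fell from 12.9 ± 0.275 to 9.06 ± 0.198 FPKM (log2 fold change -0.50, limma adjusted p = 6.0e-05) and FGFR1, an FGF receptor, from 5.60 ± 0.0166 to 4.55 ± 0.189 FPKM (-0.29, 0.0021).

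**Figure D3:**
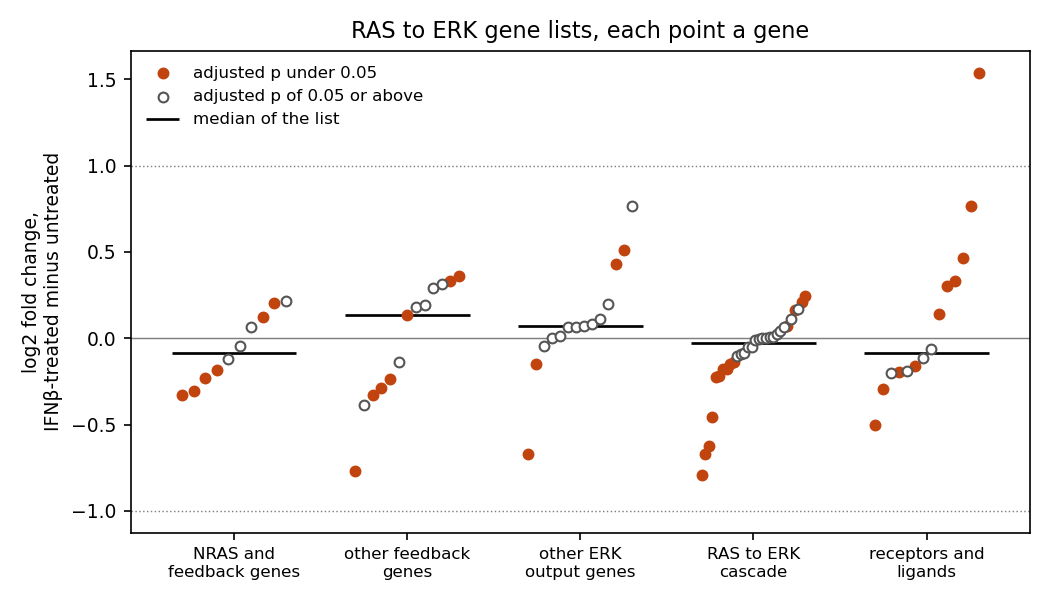
Log2 fold change, IFNβ-treated minus untreated, of each tested gene in 5 lists, with filled points at an adjusted p under 0.05, a black bar at each list's median and dotted lines at a 2-fold change. Every list holds genes that rose and genes that fell, and AREG, in the list of receptors and ligands, is the single point beyond a dotted line, with a pseudocount of 0.1.

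The genes whose FPKM followed those of NRAS most closely over the 6 libraries were TYRO3, VAMP4 and TTLL12, with Pearson's r of 0.9996, 0.9991 and 0.9989 on log2(FPKM + 0.1) among 11996 genes with a mean of at least 1 FPKM. TYRO3, a receptor tyrosine kinase, went from 9.13 to 6.35 FPKM, VAMP4, a vesicle fusion protein, from 2.05 to 1.47 and TTLL12 from 43.8 to 32.9. The closest to DUSP6 were GPBP1L1, ENSG00000278784 and RALGAPA2, with r of 0.9974, 0.977 and 0.97499. All these genes share the same 6 libraries, so a fall between 2 groups of 3 by itself gives a high r, and the DUSP6 pattern rests on few fragments.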

How the data were processed

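Per the labels, HT1080 cells were left untreated or were treated with human IFNβ, and paired 150-base reads were made. The study's RNA-seq methods name mouse IFNβ where its cell culture methods and the labels name human IFNβ; the labels were followed. The authors enriched mRNA and sequenced it on a NovaSeq instrument, and the submitters' processing notes name fastp, HISAT2 and StringTie and the build GRCh38, with no versions. The deposited values are FPKM made by the authors, 1 value per Ensembl gene and library. Annotation and strand setting are not given in the sources used here. Of the 62710 IDs, 42303 had a symbol, and 4436 are not in GENCODE release 29, from which locations, exon lengths and overlaps were taken.

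The authors' count test cannot be run on FPKM. Groups were compared with limma 3.58.1 (R 4.3.3; lmFit, eBayes with trend, no covariate, two-sided) over the 20716 genes whose mean reached 0.1 FPKM, after adding 0.1 and taking log2, with Benjamini-Hochberg adjustment over all of them. Intervals use the limma SE and a confidence level of 95%, and cover only the spread between libraries. Fold changes are on the log2(FPKM + 0.1) scale and understate those of low genes. Each library's fragment total was inferred from the most frequent product of FPKM and GENCODE exon length, taken as that of 1 fragment. With these totals, whole fragments (within 0.01 of a whole number) were recovered for 35302 of 35303 genes above 0. A gene's length was the smallest that gave whole fragments, or a multiple of it within 5% of its GENCODE exon length. The recovered fragments give depth and a limma-voom alternative. The 10 genes and the lists were chosen with earlier results of these data known. From each other list, genes with a change of at least 2-fold and the 2 largest rises and falls past the threshold are named; HRAS, SPRED2, SPRED3 and PTPN11 were added after their values were seen. Python 3.11.15 with pandas 2.3.3, numpy 2.4.6, scipy 1.17.1 and matplotlib 3.10.9 was used for the other steps. Alternatives were another pseudocount, filter, scaling or variance model, the replicate block, limma-voom and each library left out.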

Additional observations from a re-analysis of the deposited data

How the results depend on the processing

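NRAS, SPRED1, PHLDA1 and DUSP5 kept their direction and an adjusted p under 0.05 in all 16 alternatives run, with log2 fold changes from -0.34 to -0.32, -0.33 to -0.27, -0.25 to -0.19 and 0.20 to 0.22. With eBayes without trend the log2 fold changes of ETV4 and ETV5 were as in the text, -0.18 and 0.12, with adjusted p = 0.063 and 0.080. With 1 library left out they lay between -0.22 and -0.13 and between 0.11 and 0.15, each with an adjusted p under 0.05 in 2 of 6 fits. DUSP4 lay between -0.082 and 0.011, above 0 without untreated replicate 2. SPRY2, SPRY4 and DUSP6 passed in no alternative, and DUSP6 has no value where a mean of at least 1 FPKM was asked.

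The count of changed genes among the 10 was 6, and between 4 and 6 with 1 library left out; it was 4 at an adjusted p under 0.01. With limma-voom 8 other ERK output genes changed, against 4 in the text. With 1 library left out the cascade had between 9 and 13 changed genes, the other feedback genes 6 to 7 (3 rises and 4 falls in the text, 1 and 6 without untreated replicate 3), the output genes 4 to 6 and the receptors and ligands 8 to 11. BRAF was past the threshold in 5 of 16 alternatives and had an adjusted p of 0.18 with quantile normalization. A pseudocount of 1 or 0.01 moved the log2 fold change of AREG from 1.54 to 0.51 or 2.01. Quantile normalization moved the share of rises among all called genes from 46.5% to 39.4%.

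The labels do not say whether the replicate numbers pair the libraries. Deviations from the group means of same-numbered libraries correlated at 0.053, -0.018 and 0.12, and those of differently numbered libraries at between -0.15 and 0.099. With 3 libraries per group these values cannot tell whether the libraries were paired. With a replicate block NRAS fell by 0.33 on the log2 scale, 6 of the 10 genes changed, and 10 cascade genes changed against 14.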
